A study of Rattus norvegicus with 23 samples.

Results

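Genes of fast skeletal muscle fibres were followed across 23 RNA libraries of whole rat femora. The list of 10 genes held the fast myosin heavy chains Myh1, Myh2 and Myh4, the fast myosin light chain Mylpf, and the fast troponin subunits Tnni2, Tnnt3 and Tnnc2. It also held the Z-disc protein gene Actn3 and the calcium store genes Atp2a1 and Casq1. Members were the rows of the deposited gene tables with these names. There were 8 such rows among the 30562 genes, Mylpf was found under its newer symbol Myl11, and Myh1 had no row of its own, so 9 members were measured. All 9 were among the 15271 genes that passed the low-count filter.

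The study measured polyadenylated RNA in the femora of female Wistar rats as 23 bulk libraries in 5 groups. MetOP, the metabolic osteoporosis model, was induced by feeding high fat and giving L-NAME, which blocks nitric oxide synthase. MetOP rats were given semaglutide together with PYY3-36 (the combination, n = 5), semaglutide alone (n = 5), PYY3-36 alone (PYY, n = 4) or saline (MetOP saline, n = 5). Healthy controls (n = 4) were labelled as kept on a standard diet with saline. Semaglutide activates the receptor of the gut hormone GLP-1, and PYY3-36, another gut peptide, binds a neuropeptide Y receptor. All MetOP groups, the saline one included, thus share the diet and L-NAME. Titles of MetOP libraries also carry the letters lfd, which the labels leave unexplained, and the treatment labels of the PYY libraries count up from PYY3-36 to PYY3-39 under 1 shared title. The labels state no dose, duration or age. Whether each library is a different rat is not stated. The p-values below therefore rest on how much libraries varied within groups, pooled over all 5 groups, and some of that may be technical.

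Fast fibres are the quickly contracting, largely glycolytic cells of skeletal muscle, and slow fibres are their fatigue-resistant, oxidative counterparts. Each fibre type builds its contractile and calcium machinery from its own set of isoforms, with Myh4, Myh1 and Myh2 for the IIB, IIX and IIA fibres and Myh7 for slow fibres. Femora carry muscle only where it attaches to the bone, and skeletal muscle fibres are not a cell type of bone or marrow. In bulk RNA, fewer fibres and less RNA per fibre cannot be told apart.

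The promoters of the fast myosin heavy chain genes are shown because Myh2 and the row named Myh4 gave different profiles across the libraries, and that row may also hold reads of Myh1, which lies between them and has no row of its own. Each runs from 250 bases before to 50 bases after the gene's start in RefSeq annotation of the build GRCr8, which is not the build of the deposited tables. Capitals mark the TATA letters (TATAAA), the M-CAT letters (CATTCC), an E-box (CAGCTG) and matches to the MEF2 motif and the CArG box, all searched on both strands.
Myh4 (chr10:52421898-52422197, plus strand): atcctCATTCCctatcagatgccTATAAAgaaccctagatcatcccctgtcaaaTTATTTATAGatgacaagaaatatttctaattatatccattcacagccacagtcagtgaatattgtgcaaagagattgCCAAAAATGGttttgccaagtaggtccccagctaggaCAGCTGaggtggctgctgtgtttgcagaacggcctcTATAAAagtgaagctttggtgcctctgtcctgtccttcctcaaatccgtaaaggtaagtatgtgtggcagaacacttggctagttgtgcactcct
Myh1 (chr10:52384662-52384961, plus strand): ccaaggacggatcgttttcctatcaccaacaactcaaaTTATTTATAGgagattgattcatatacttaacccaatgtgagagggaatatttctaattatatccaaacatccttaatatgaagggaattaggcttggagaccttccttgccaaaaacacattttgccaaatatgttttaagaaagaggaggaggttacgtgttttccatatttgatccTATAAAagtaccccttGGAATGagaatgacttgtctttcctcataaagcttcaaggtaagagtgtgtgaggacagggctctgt
Myh2 (chr10:52355489-52355788, plus strand): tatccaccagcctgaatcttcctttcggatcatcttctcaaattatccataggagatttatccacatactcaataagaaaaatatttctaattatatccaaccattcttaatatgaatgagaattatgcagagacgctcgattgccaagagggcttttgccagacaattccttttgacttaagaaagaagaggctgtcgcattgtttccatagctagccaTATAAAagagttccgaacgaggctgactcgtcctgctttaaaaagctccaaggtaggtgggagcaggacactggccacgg
The Myh4 promoter held all 5 of these, the Myh1 promoter held the TATA letters, the M-CAT letters and the MEF2 motif, and the Myh2 promoter held the TATA letters alone. In Myh4 and Myh1 the MEF2 match overlaps a match to the TATA letters on the other strand. The copy nearest the start lay at -45 to -40 in Myh4, -33 to -28 in Myh1 and -30 to -25 in Myh2, with the start counted as 0. Of 33469 RefSeq promoters of this length, 14.2% held the TATA letters, 14.2% the M-CAT letters, 15.1% the E-box, 3.29% the MEF2 motif and 1.64% the CArG box. Promoter entries existed for 9 of the 10 listed genes, all but Tnnt3. The E-box was also held by Atp2a1, Casq1 and Myl11 and the TATA letters by Tnni2, and neither Tnnc2 nor Actn3 held any of the 5. A match of letters describes the window and shows no binding.

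Library totals ran from 19.25 to 40.65 M counts, of which 37 mitochondrially encoded genes took 46.1 to 83.9%, leaving 4.28 to 16.1 M for all other genes. Bone and marrow genes were present as the tissue label says, with Col1a1, the main collagen of bone, at a mean of 797 CPM and Hbb, a globin, at 5231 CPM over the 23 libraries. CPM are counts per M library counts after TMM scaling. Libraries of a group differed widely, with correlations of log2 CPM from 0.666 to 0.937 over 42 pairs within groups. Of 6 heart markers, Nppa, Nppb and Myl7 had no count in any library. Of the other 3, means over the libraries were 15.6 CPM for Myh6, which shares sequence with Myh7, and 9.42 CPM for Myl4, and Tnni3 was at 0 in 5 libraries. The markers summed to 2.67 to 45.2 CPM with the combination, 19.6 to 106 with semaglutide, 3.31 to 29.5 with PYY, 3.27 to 62.5 in MetOP saline and 17.1 to 24.7 in healthy controls. Smooth muscle markers summed to 91.8 to 466 CPM with the combination, 107 to 212 with semaglutide, 162 to 448 with PYY, 94.6 to 159 in MetOP saline and 82.4 to 127 in healthy controls.

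In the deposited tables (build mRatBN7.2) the myosin rows lie side by side, Myh2 at chromosome 10, 51856738 to 51883236 and Myh4 at chromosome 10, 51885913 to 51946295, with 2676 bases and no other row between them. The Myh4 row spans 60.4 kb, against 26.5 kb for Myh2, and its counted length of 12070 bases is 2 times that of Myh2. In RefSeq, Myh1 lies between Myh2 and Myh4, so the row named Myh4 may hold reads of both genes, and the IIB and IIX isoforms cannot be told apart here. It is called the Myh4 row below. The heavy chain genes are near-identical copies in long stretches, so reads could also be split between them, and the same holds for slow Myh7 and cardiac Myh6. Tnni2 (chromosome 1, 197594813 to 197597560) and Tnnt3 (chromosome 1, 197652431 to 197669535) lie 54870 bases apart, with 2 rows between them. Atp2a1 (chromosome 1, 181026608 to 181044838) and Myl11 (chromosome 1, 181829743 to 181832545) are also on that chromosome, as is Actn3 (chromosome 1, 202159082 to 202175012). Tnnc2 is at chromosome 3, 153513271 to 153516029 and Casq1 at chromosome 13, 84670649 to 84680339. The labels do not settle whether counting used strand, so reads of any antisense gene could add to these counts.

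Fast-fibre RNA was abundant in most femora and varied widely between libraries of the same group. The 9 members together took between 0.358% of the non-mitochondrial counts (combination A320) and 11.5% (semaglutide A238). In library order A248, A251, A253, A318 and A320 the combination had 7.28, 11.1, 3.69, 6.04 and 0.358%. Semaglutide libraries A238, A240, A241, A242 and A243 had 11.5, 4.43, 10.4, 0.676 and 7.03%, and PYY libraries A215, A216, A219 and A220 had 4.58, 1.38, 7.03 and 0.689%. MetOP saline libraries A224, A226, A229, A232 and A265 had 5.68, 4.87, 4.67, 4.07 and 8.47%, and healthy controls A387, A389, A390 and A392 had 7.23, 8.74, 5.199 and 3.92%. A320, A242 and A220 were under 1% and A216 was at 1.38%, while no MetOP saline or healthy control library was under 3.92%. These 4 low libraries, A320 (combination), A242 (semaglutide), A216 and A220 (both PYY), recur below. All other shares lay between 3.69% and 11.5%. The same library order is used for all values by library below.

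Per length of gene, Tnnc2 and Myl11 stood highest and Myh2 lowest. By the deposited FPKM (fragments per kilobase and M reads), the median over the 23 libraries was 2447 for Tnnc2 and 1572 for Myl11. It was 961 for Tnnt3, 896 for Atp2a1 and 636 for Tnni2. The Myh4 row had 297, Casq1 252, Actn3 226.2 and Myh2 69.5 FPKM. Tnnc2 exceeded Myl11, Myl11 exceeded Tnnt3, and Tnni2 exceeded the Myh4 row in 23 of 23 libraries each. The next steps were less even, with Tnnt3 above Atp2a1 in 19, Atp2a1 above Tnni2 in 18, the Myh4 row above Casq1 in 18 and Actn3 above Myh2 in 21 of the 23. Casq1 and Actn3 were not separable in this order, Casq1 being higher in 9 of the 23. The FPKM of the Myh4 row is divided by a length that may cover both genes.

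The fast troponin complex, which lets calcium switch contraction on through its calcium-binding (Tnnc2), inhibitory (Tnni2) and tropomyosin-binding (Tnnt3) subunits, showed the spread plainly. Tnni2 had 1659, 2737, 731, 922 and 42.7 CPM with the combination and 2485, 876, 2229, 86.2 and 1544 CPM with semaglutide. PYY libraries had 656, 180.1, 1046 and 107 CPM, against 1094, 899, 885, 665 and 2013 CPM in MetOP saline and 1129, 2109, 1095 and 772 CPM in healthy controls. Tnni2 was lowest in A320, A242 and A220, and A251 (combination) and A238 (semaglutide) were the highest of all 23. The groups overlapped in every comparison. Tnnt3 had 4583, 8588, 2185, 3121 and 129.8 CPM with the combination and 8041, 2562, 7340.1, 291 and 4305 CPM with semaglutide. The values with PYY were 1913, 567, 3122 and 299.6 CPM, against 2836, 2825, 2394, 1891 and 5919 CPM in MetOP saline and 3609.7, 6233, 3140.4 and 2292 CPM in healthy controls. The same libraries were lowest and highest for Tnnt3, in the same order. Tnnc2 had 3309.8, 4964, 1449, 1873 and 102 CPM with the combination and 4494, 1733, 4173, 361 and 2933 CPM with semaglutide. With PYY it had 1288, 369.6, 2059 and 309 CPM, against 2089, 1812, 1819, 1380.0 and 3601 CPM in MetOP saline and 2342, 3869.9, 2109.9 and 1640.1 CPM in healthy controls. Tnnc2 was again lowest in A320 and highest in A251, with A220, A242 and A216 the next lowest. Its group medians were 1873 CPM with the combination, 2933 with semaglutide, 829 with PYY, 1819 in MetOP saline and 2226 in healthy controls.

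Myl11, the fast regulatory light chain that sits on the myosin neck, was low and high in the same libraries as Tnnc2. Myl11 had 2666, 4481, 1063, 1479 and 66.5 CPM with the combination and 4038, 1379, 4002, 256 and 2609 CPM with semaglutide. PYY libraries had 1155, 257, 2213 and 228 CPM, against 1795, 1570.4, 1357, 1155 and 3247 CPM in MetOP saline and 2149, 3836, 1726 and 1270.3 CPM in healthy controls. Its lowest and highest libraries were also A320 and A251. Its group medians were 1479 CPM with the combination, 2609 with semaglutide, 706 with PYY, 1570.4 in MetOP saline and 1937 in healthy controls. PYY had the lowest and semaglutide the highest median for both Tnnc2 and Myl11, and for both genes the PYY and semaglutide libraries overlapped.

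**Figure D1:**
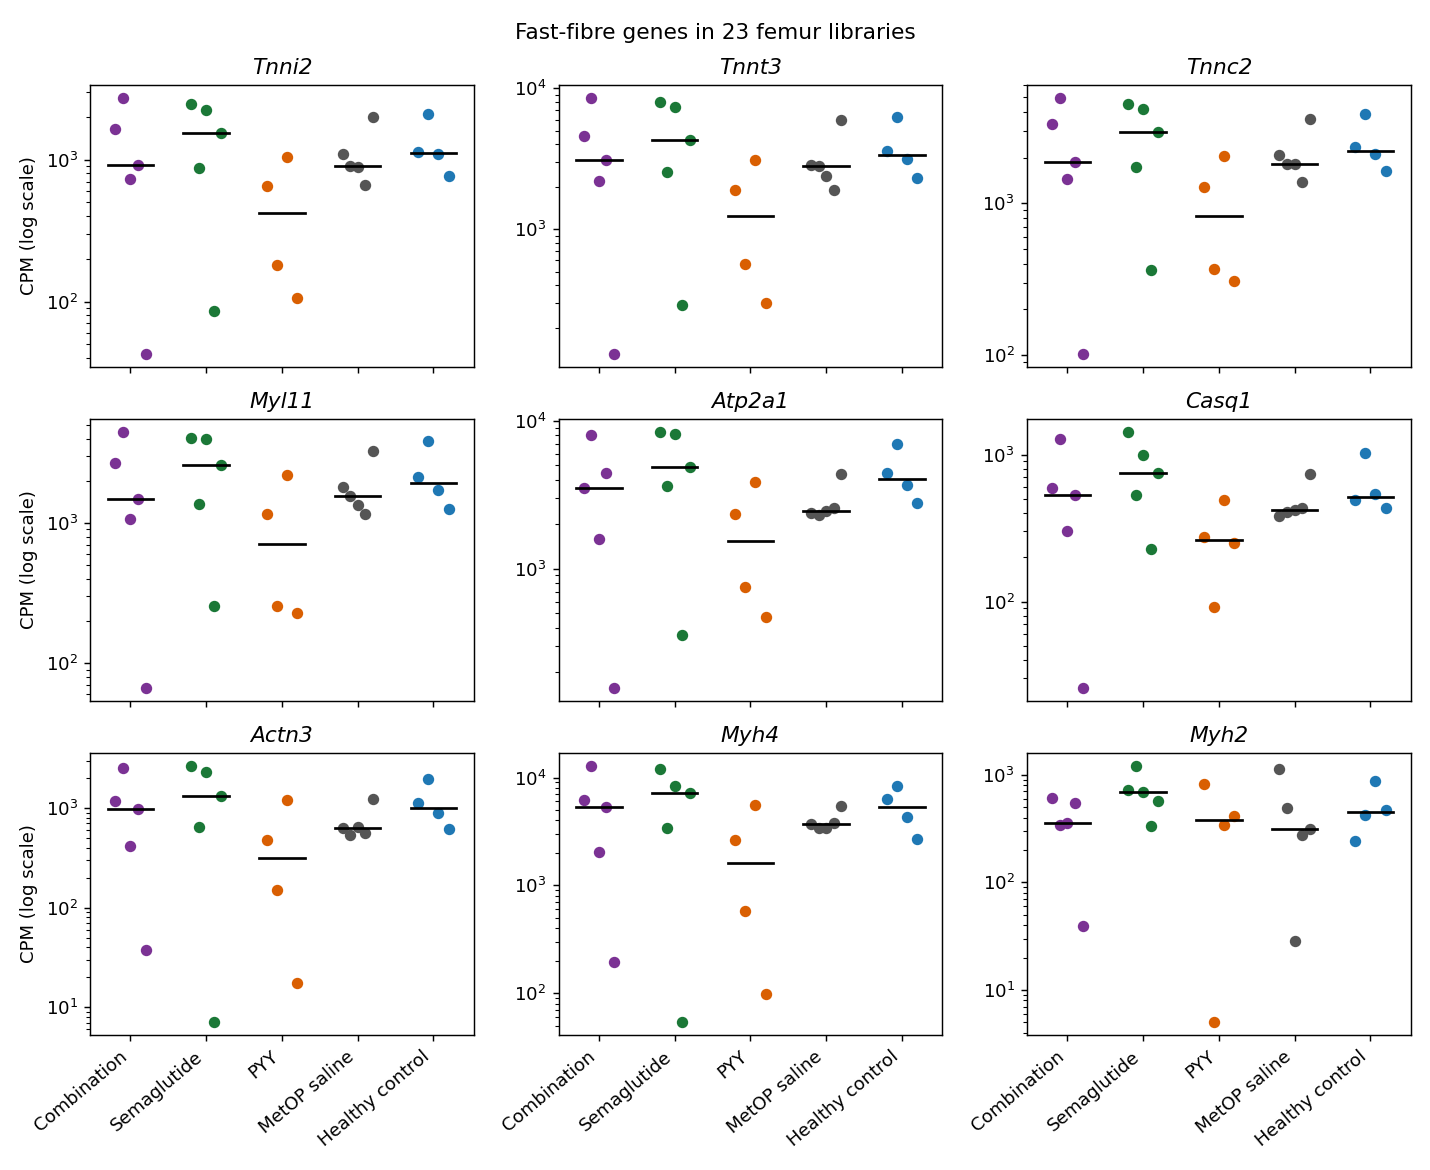
Counts per M (CPM, log axis) of the 9 measured genes, 1 point per library and a bar at the median of each group, from the combination on the left to healthy controls on the right. In 8 of the 9 panels A320 (combination), A242 (semaglutide) and A216 and A220 (PYY) are the 4 lowest points, and Myh2 has a different pattern.

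The calcium store genes had the same 4 low libraries. Atp2a1 encodes the fast-fibre calcium pump SERCA1, which returns calcium to the sarcoplasmic reticulum after a twitch. Atp2a1 had 3519, 7964, 1584, 4458 and 156 CPM with the combination and 8421, 3617, 8153, 355 and 4843 CPM with semaglutide. The values with PYY were 2341, 756, 3872 and 471 CPM, against 2395, 2298, 2441, 2587 and 4378 CPM in MetOP saline and 4422, 6961, 3686 and 2799 CPM in healthy controls. From its lowest to its highest library Atp2a1 spanned 51.0-fold with the combination, 23.7-fold with semaglutide, 8.23-fold with PYY, 1.91-fold in MetOP saline and 2.49-fold in healthy controls. The wide spans of the combination and of semaglutide came from 1 low library each, A320 and A242, without which their lowest libraries were A253 and A240. Casq1 encodes calsequestrin 1, which buffers calcium inside that store and is also made in slow fibres, at lower levels. Casq1 had 593, 1269, 302, 531 and 25.8 CPM with the combination and 1427, 534, 993, 227 and 749.9 CPM with semaglutide. With PYY it had 277, 91.1, 491 and 250.4 CPM, against 382, 409, 420.3, 432 and 737 CPM in MetOP saline and 490.1, 1018, 535 and 429 CPM in healthy controls. In A242 and A220 Casq1 stood at 227 and 250.4 CPM, a little under the 277 CPM of A215.

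Actn3 and the Myh4 row were lowest in A242 and A220. Actn3 encodes alpha-actinin-3, which anchors actin at the Z-disc of fast glycolytic fibres. Actn3 had 1180.3, 2539.8, 417, 989 and 37.9 CPM with the combination and 2649.7, 648, 2277, 7.08 and 1313 CPM with semaglutide. PYY libraries had 478, 151, 1193 and 17.5 CPM, against 631, 532, 644, 563 and 1234 CPM in MetOP saline and 1121, 1957, 885 and 618 CPM in healthy controls. Across all libraries it spanned 374-fold, more than any other member. The Myh4 row had 6130.0, 12826, 2036, 5305 and 193 CPM with the combination and 12041, 3439, 8270.2, 53.8 and 7199 CPM with semaglutide. The values with PYY were 2658, 574, 5528 and 98.2 CPM, against 3738, 3391, 3368, 3756 and 5458 CPM in MetOP saline and 6340.0, 8265, 4289.7 and 2693 CPM in healthy controls. Both genes were lowest in A242, next lowest in A220, and only then in A320, an order that differs from that of the troponins. A216 came next above these for both, with 151 CPM of Actn3 and 574 CPM of the Myh4 row.

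Myh2, the heavy chain of the intermediate, more oxidative IIA fibres, behaved differently from the other 8 members. Myh2 had 610.5, 343, 357, 543 and 38.9 CPM with the combination and 729, 1210.1, 698, 333 and 571 CPM with semaglutide. With PYY it had 819.5, 5.02, 343 and 418 CPM, against 1137, 489, 28.7, 276 and 313 CPM in MetOP saline and 243.3, 424, 877 and 474 CPM in healthy controls. Its lowest library was A216 (PYY) and the next was A229 (MetOP saline), which was not low for any other member. In A242 and A220, the lowest libraries of the Myh4 row, Myh2 had 333 and 418 CPM, against a median of 424 CPM over all 23 libraries.

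Set beside Myh7, the slow and cardiac heavy chain, the myosin rows gave each femur its own mix. Shares below are of the summed FPKM of Myh2, the Myh4 row and Myh7. Myh7 made up 40.3, 27.9, 36.3, 40.8 and 56.6% with the combination, 16.9, 62.7, 18.5, 91.1 and 49.7% with semaglutide and 10.9, 3.30, 1.77 and 90.1% with PYY. It made up 7.33, 50.1, 7.19, 42.1 and 19.3% in MetOP saline and 4.09, 34.1, 45.2 and 53.8% in healthy controls. Myh7 thus made up nearly all of it in A220 and A242, and the next highest library, A240 (semaglutide), was at 62.7%. At the other end, the Myh4 row made up 95.04% in A216, 91.3% in A229, 89.1% in A387 (healthy control) and 87.4% in A219 (PYY), and at most 74.1% elsewhere. Myh2 made up 35.0% in A224 (MetOP saline) and 33.9% in A215 (PYY), and at most 16.5% elsewhere. Median Myh7 shares were 40.3% with the combination, 49.7% with semaglutide, 7.12% with PYY, 19.3% in MetOP saline and 39.7% in healthy controls, and the ranges overlapped.

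**Figure D2:**
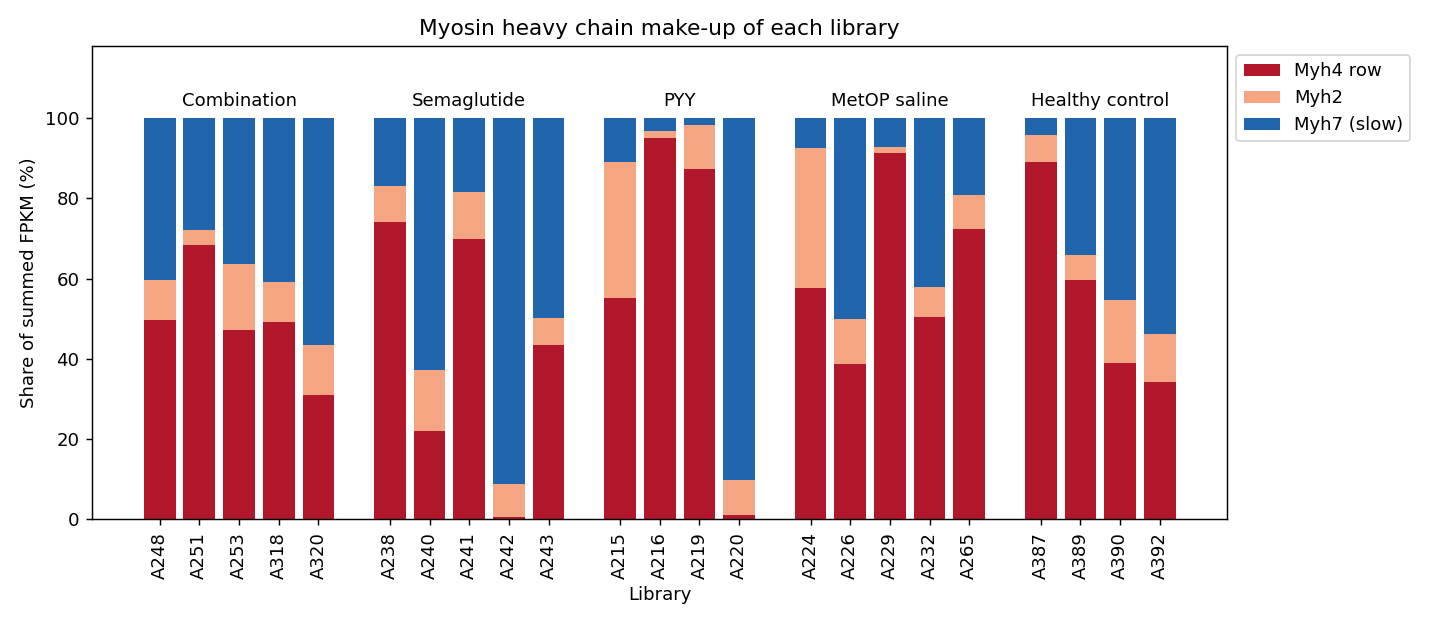
Share of the summed FPKM of 3 myosin heavy chain rows in each library (percent, stacked), with the Myh4 row in dark red, Myh2 in light orange and slow Myh7 in blue, grouped from combination to healthy control. A242 (semaglutide) and A220 (PYY) are over 90% Myh7, and A216 and A219 (PYY), A229 (MetOP saline) and A387 (healthy control) are mostly the Myh4 row.

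The 4 low libraries were thus not alike. A216 and A320 were low in the sarcomere genes that both fibre types use. Their mean level of 15 sarcomere genes common to fast and slow fibres, such as Acta1 (skeletal actin) and Ttn (titin), was 5.08 and 5.04 log2 CPM, against 7.64 to 9.87 in the other 21. A220 and A242 had 9.41 and 9.09 on that scale, within the range of the rest, and their slow-fibre level, the mean of 10 genes, was 10.85 and 10.58 log2 CPM. That slow-fibre level was 2.91 in A216 and 6.17 in A320. Tnni2 over Tnni1, its slow-fibre counterpart, gave an FPKM ratio of 0.0498 in A220 and 0.0472 in A242, against 0.518 to 50.4 in the other 21. Atp2a1 over Atp2a2, the slow-fibre pump, gave 0.203 and 0.199, against 1.79 to 64.1. Casq1 over Casq2, the isoform of slow and cardiac muscle, gave 1.59 and 1.54, higher than 1 but below the 2.095 to 58.86 of the other 21. Over groups, the median of Tnni2 over Tnni1 was 1.59 with the combination, 1.00 with semaglutide, 21.9 with PYY, 5.98 in MetOP saline and 1.35 in healthy controls. For Tnnc2 over Tnnc1, the slow calcium-binding subunit, the medians were 8.33 with the combination, 4.13 with semaglutide, 77.0 with PYY, 20.7 in MetOP saline and 5.95 in healthy controls. The PYY libraries ran over 0.0498 to 50.4 for Tnni2 over Tnni1, a range that held those of all other groups but the semaglutide minimum.

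Across the 23 libraries, with group means removed, the fast-fibre and slow-fibre levels were nearly unrelated, with a Pearson r of 0.127 and a Spearman rho of 0.060. Without A320 and A242, the libraries farthest from the median fast-fibre level, r was -0.038. With the shared sarcomere level r was 0.620, and 0.421 without those libraries. These correlations describe libraries that share a scaling and a total, and carry no p.

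**Figure D3:**
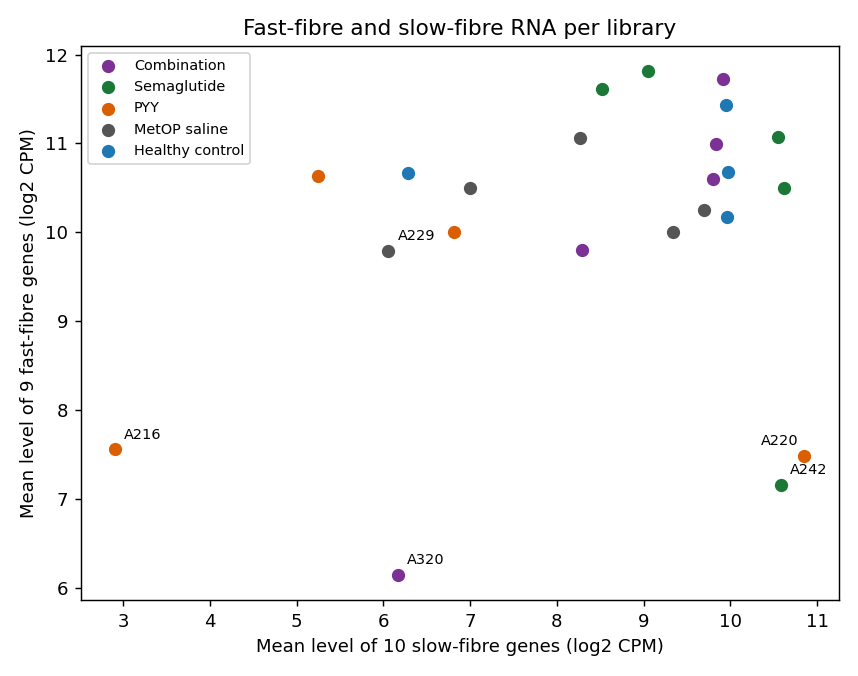
Mean level of the 9 fast-fibre genes (log2 CPM, y) against that of 10 slow-fibre genes (log2 CPM, x), 1 point per library coloured by group. A216 and A320 are low on the y axis with slow-fibre levels of 2.91 and 6.17, and A220 and A242 combine a low fast-fibre level with slow-fibre levels of 10.85 and 10.58.

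Most members moved together from library to library. With group means removed, each member's r with the mean of the others over the 23 libraries was 0.989 for Tnni2, 0.987 for Tnnt3, 0.985 for Myl11, 0.983 for Tnnc2 and 0.983 for Atp2a1. It was 0.935 for the Myh4 row, 0.916 for Actn3, 0.897 for Casq1 and 0.427 for Myh2. The tightest pairs were Tnni2 with Tnnt3 (r = 0.998), Tnnc2 with Myl11 (r = 0.998) and the Myh4 row with Actn3 (r = 0.995). Casq1 was less like the last pair (r = 0.760 with Actn3), and it followed the shared sarcomere level more closely than any other member (r = 0.824). Myh2 had the highest r with the slow-fibre level, 0.639 (0.441 without its 2 most extreme libraries), whereas Actn3 had -0.134.

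**Figure D4:**
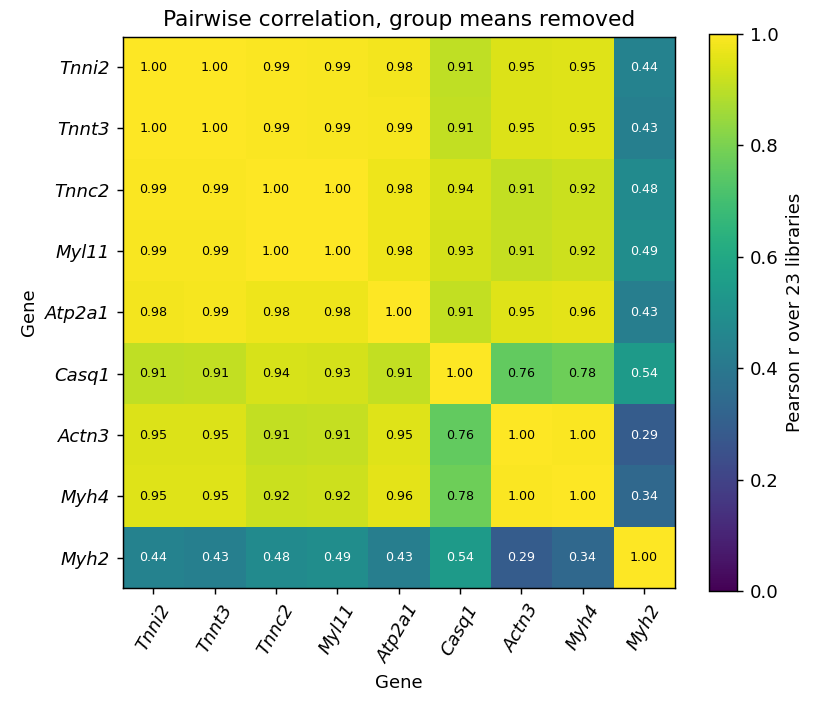
Pearson r between the log2 CPM of each pair of measured genes over 23 libraries with group means removed, as a heat map from 0 to 1. Tnni2, Tnnt3, Tnnc2, Myl11 and Atp2a1 form a block with no r under 0.975, Actn3 and the Myh4 row pair with each other, and the Myh2 row and column hold the lowest values, none over 0.545.

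Outside the list, the 6 genes whose profile was most like the members' mean, by the same measure over 15262 genes and 23 libraries, were Myoz1 (r = 0.988), Ldha (0.977), Gpd1 (0.971), Tpm1 (0.964), Mybpc2 (0.956) and Pkm (0.948). Myoz1 is a Z-disc protein and Mybpc2 the fast myosin-binding protein C, Tpm1 is a tropomyosin, and Ldha, Gpd1 and Pkm are enzymes of glycolysis and its redox balance. Myoz1 ran from 21.7 CPM in A320 to 1233 CPM in A251, the extremes of the troponins. At the level of lists, the members' mean had r of 0.970 with 8 other fast-fibre genes, 0.937 with 11 genes of glycogen use and anaerobic energy and 0.910 with 7 atrophy genes. It was 0.747 with 13 genes of excitation-contraction coupling. Some other cell types ran the other way, with -0.391 for 10 osteoblast and osteocyte genes, -0.361 for 8 erythroid and -0.512 for 7 neutrophil genes. Smooth muscle markers had -0.293, but 0.153 without A320 and A242. All these levels share 1 total with the muscle genes. Fat and tendon markers ran the same way as the members, with 0.289 for 5 fat and 0.316 for 6 tendon markers. Heart markers had 0.240, but -0.045 without A320 and A242.

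No member passed the test in any of the 5 comparisons that the design implies. All tests were edgeR quasi-likelihood tests over the 23 libraries with Benjamini-Hochberg adjustment over 15271 genes, and a call needed an adjusted p under 0.05. Fold changes are log2 of the first-named group over the second, with the SE. The share of all genes called was 0% in 4 comparisons and 0.00655% in the comparison of semaglutide with PYY, where the 1 gene called was Ddr2, a collagen receptor named here because it was the only call (lower with semaglutide, -2.43 ± 0.32, edgeR adjusted p = 0.0014). An unadjusted p under 0.05 was reached by 468 genes for the combination, 1744 for semaglutide, 740 for PYY, 2575 for semaglutide against PYY and 1000 for MetOP saline against healthy controls. Among the members it was reached once, by Casq1 in semaglutide against PYY. For every member the libraries of the groups overlapped in all 5 comparisons. Of all genes tested, the groups did not overlap in 0.399% for the combination, 4.47% for semaglutide, 1.93% for PYY, 5.87% for semaglutide against PYY and 2.78% for MetOP saline against healthy controls. The 3 comparisons with MetOP saline as the base share its libraries, as do the others in part, so their values are not independent of each other. DESeq2, in place of edgeR, called 2 (combination), 82 (semaglutide), 3 (PYY), 486 (semaglutide against PYY) and 47 (MetOP saline against healthy controls) genes, and no member.

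**Figure D5:**
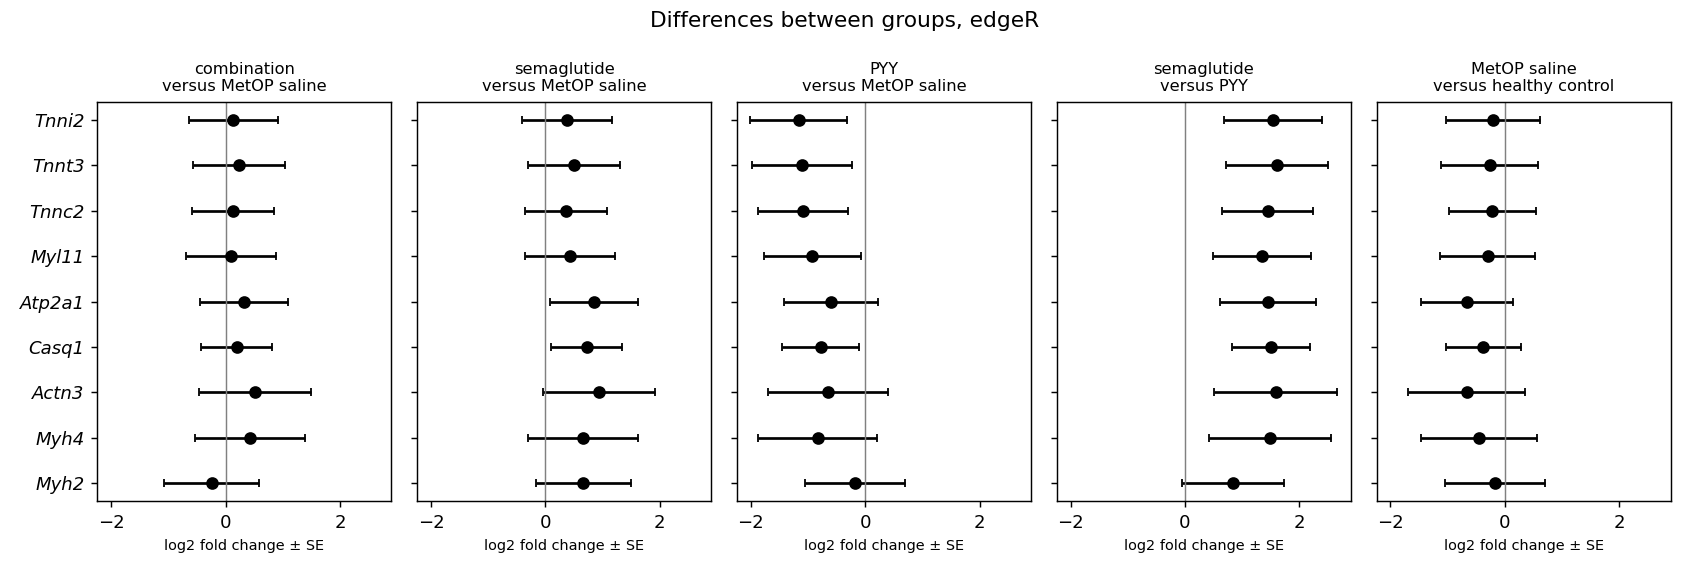
Log2 fold changes (points) with their SE (bars) of the 9 genes in the 5 comparisons, from the edgeR fit. Against MetOP saline, values with semaglutide lie to the right of 0 and values with PYY to the left, and none passed the adjusted threshold.

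With the combination against MetOP saline, 8 of 9 members were above 0, with none called and a median log2 fold change of 0.19, against 0.02 over all genes tested. The Myh4 row had 0.43 ± 0.96 (95% interval -1.46 to 2.31), Tnni2 0.13 ± 0.78 and Actn3 0.52 ± 0.98. Myh2, the member below 0, had -0.25 ± 0.83. The edgeR adjusted p was 1 for each. The sign and the size depend on single libraries, since without A251 the median was -0.33 with 0 of 9 above 0, and without A320 it was 0.50 with 9 of 9. It was 0.09 without A232, 0.34 without A253 and 0.46 without A265. The limma voom fit gave a median of -0.51, with 1 of 9 above 0. Slow-fibre genes had a median of 0.73 with 10 of 10 above 0, and none was called.

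With semaglutide against MetOP saline, all 9 members were above 0, with a median of 0.65 against -0.04 over all genes, and none was called. The largest value was that of Actn3, 0.94 ± 0.98 (edgeR adjusted p = 0.729), followed by Atp2a1 with 0.85 ± 0.77 and Casq1 with 0.72 ± 0.62. The smallest was Tnnc2, 0.36 ± 0.72. Intervals were wide, and that of Actn3 ran over -0.99 to 2.86. Without A238, the richest library in fast-fibre RNA, the median was 0.27, without A229 (MetOP saline) it was 0.42, and without the slow-fibre library A242 it was 0.84. The limma voom fit gave -0.0008, with 4 of 9 above 0. Muscle genes of other kinds lay on the same side, with medians of 1.49 for 10 slow-fibre, 0.95 for 15 shared sarcomere and 0.71 for 11 glycogen and anaerobic energy genes, every gene above 0 and none called. Of these 11, 1 had no count in 6 of the 23 libraries. With only these 2 groups in the fit, 14 of 15 shared sarcomere genes had an unadjusted edgeR p under 0.05 (lowest adjusted p = 0.0767). So did 5 of 10 slow-fibre genes, 1 of 11 energy genes and 0 of 9 members, none called.

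Osteoblast and osteocyte genes lay on the opposite side in that comparison, with 0 of 10 above 0 and a median of -2.33. Of these 10, edgeR called none and DESeq2 called 6, beside 82 calls by DESeq2 among all 15271 genes tested. Their summed level ran over 183 to 779 CPM with semaglutide, against 381 to 6884 CPM in MetOP saline. Sost was at 0 in 2 of the 23 libraries and the other 9 had counts in all. Erythroid genes summed to 647 to 6871 CPM with semaglutide, against 2613 to 15131 CPM in MetOP saline, with 0 of 8 above 0. The part of either in the members' values was not tested.

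With PYY against MetOP saline, all 9 members were below 0, with a median of -0.83 against -0.01 over all genes, and none was called. Tnni2 had -1.16 ± 0.85 (95% interval -2.82 to 0.50), Tnnt3 -1.10 ± 0.87 and Tnnc2 -1.09 ± 0.78, with edgeR adjusted p of 1.00 for each. Myh2 was nearest to 0 with -0.18 ± 0.88. The lowest troponin values were those of A216 and A220, and A219 lay within the range of MetOP saline for Tnni2 and Tnnt3. A215 lay within that range for Tnnt3, Atp2a1, Myl11 and Myh2. It was below the lowest MetOP saline library for Tnni2 (656 against 665 CPM), Tnnc2 (1288 against 1380) and Casq1 (277 against 382). The same held for Actn3 (478 against 532 CPM) and the Myh4 row (2658 against 3368). The median was -0.51 without A216, -0.59 without A220 and -1.67 without A219. Slow-fibre genes changed side with A220 and with the tool. All 10 were above 0 with a median of 0.35, and without A220 all 10 were below 0 with a median of -2.97, none called in either fit. With all libraries, the limma voom fit also put all 10 below 0, with a median of -2.05, and gave the members a median of -1.45, none called. Myh7 had 259, 9.80, 55.0 and 4187 CPM with PYY, against 233, 2153, 130.2, 1535 and 712 CPM in MetOP saline.

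In semaglutide against PYY all 9 members were above 0 with the largest median of the 5 comparisons, 1.49, against -0.06 over all genes, and none was called beside 0.00655% of all genes. Casq1 had 1.503 ± 0.68 (95% interval 0.17 to 2.84, edgeR adjusted p = 0.267), with 1427, 534, 993, 227 and 749.9 CPM in semaglutide libraries and 277, 91.1, 491 and 250.4 CPM in PYY libraries. Tnnt3 had 1.61 ± 0.89 (edgeR adjusted p = 0.363), Actn3 1.58 ± 1.08 and Tnni2 1.54 ± 0.86. Myh2 had 0.84 ± 0.89, the smallest. Leaving out A219, A242 or A220 moved the median to 2.08, 1.75 or 1.14, and no member was called in any of these fits. With DESeq2, 4 members had an unadjusted p under 0.05 and the lowest adjusted p among them was 0.126.

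The number of other genes called in this comparison depended on the tool and on the PYY library A220. DESeq2 with all libraries called 486 genes. These held 6 of 10 osteoblast and osteocyte genes, lower with semaglutide, and none of the 10 slow-fibre genes. Without A220, edgeR called 1021 genes in place of 1. Among them were all 10 slow-fibre genes, higher with semaglutide with a median of 4.53, and 6 of 10 osteoblast and osteocyte genes, lower with semaglutide. Of 15 shared sarcomere genes, 1 was called. No member was called (lowest adjusted p = 0.24), nor was any of the 8 other fast-fibre genes (lowest adjusted p = 0.0786). Whether fast-fibre and slow-fibre genes differed in their response was not tested. Osteoblast and osteocyte genes summed to 183 to 779 CPM with semaglutide and 195 to 6990.0 CPM with PYY.

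In MetOP saline against healthy controls, all 9 members were below 0, with a median of -0.30 against 0.04 over all genes, and none was called. Actn3 had -0.67 ± 1.03 and Atp2a1 -0.66 ± 0.81 (edgeR adjusted p = 0.954), and Myh2 had -0.17 ± 0.87. MetOP saline spread less than any other group for the Myh4 row, at 3738, 3391, 3368, 3756 and 5458 CPM, against 6340.0, 8265, 4289.7 and 2693 CPM in healthy controls. The median moved with several single libraries. Without the healthy controls A389 or A392 it was -0.02 (4 of 9 above 0) or -0.49, and without the MetOP saline libraries A232 or A265 it was -0.17 or -0.60. Slow-fibre genes had a median of -0.99 with 0 of 10 above 0, none called.

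Other genes of the fast-fibre programme lay where the members did, and no gene of any list was called. Of 8 other fast-fibre genes, Myl1 (an essential light chain) had 0.58 ± 0.67 with semaglutide and -0.80 ± 0.72 with PYY, each against MetOP saline, and Pvalb (parvalbumin, a calcium buffer of fast fibres) had 0.60 ± 0.94 and -1.06 ± 1.02. The list's median was 0.62 with semaglutide (8 of 8 above 0) and -0.80 with PYY (1 of 8). The 11 genes of glycogen use and anaerobic energy, 1 of them with no count in 6 libraries, had 0.71 with semaglutide (11 of 11) and -0.83 with PYY (0 of 11). Among them Pygm, the muscle glycogen phosphorylase, had 0.79 ± 0.67 with semaglutide and -0.69 ± 0.72 with PYY. The 13 genes of excitation-contraction coupling, which serve both fibre types, had 0.97 with semaglutide (13 of 13) and -0.43 with PYY (1 of 13). Ryr1, the calcium release channel, had 0.89 ± 0.60 with semaglutide and -0.52 ± 0.63 with PYY.

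When the mean level of the 15 shared sarcomere genes was added to the fit as a covariate, members were compared at a given amount of striated muscle RNA. Slow fibres fill that level too. A242 and A220 had 9.09 and 9.41 log2 CPM of it, beside 7.15 and 7.49 for the members. It ran over 9.09 to 9.72 with semaglutide and 7.64 to 8.93 in MetOP saline, without overlap. The fit thus cannot separate the amount of muscle from the mix of fast and slow fibres. Again no member was called in any comparison, beside 0% of all genes in 4 comparisons and 0.00655% in semaglutide against PYY. The members' median was -0.36 for the combination (0 of 9 above 0), -0.38 for semaglutide (1 of 9) and -0.15 for PYY (3 of 9), each against MetOP saline. It was -0.15 for semaglutide against PYY (0 of 9) and 0.20 for MetOP saline against healthy controls (7 of 9). Casq1 in semaglutide against PYY had -0.04 ± 0.55 in this fit, against 1.503 ± 0.68 without the covariate, and Actn3 had -0.16 ± 1.32, against 1.58 ± 1.08. Slow-fibre genes had medians of 0.96 for the combination and 0.46 for semaglutide, with 10 of 10 above 0 in both. They had -0.20 for PYY (3 of 10), 0.65 for semaglutide against PYY (10 of 10) and -0.37 for MetOP saline against healthy controls (0 of 10), and none was called.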

How the data were processed

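Bulk RNA-seq of rat femora was used from a deposited count table and a deposited FPKM table, each with all libraries as columns. The counts are whole-number, unscaled values per gene as deposited by the authors. The authors' FPKM, scaled by gene length and by a depth that follows a library size factor in the values, were used only to set genes side by side. The build mRatBN7.2 and DESeq2 1.42.0 are named in the submitters' processing notes, and the sources used here name no aligner, counter or use of strand. All 23 libraries carried a group label and entered 1 fit.

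Counts were scaled by TMM, genes were filtered by edgeR's filterByExpr on the groups, and edgeR 4.0.16 (R 4.3.3) was fitted by robust quasi-likelihood with 1 mean per group (18 residual degrees of freedom). Calls used Benjamini-Hochberg adjusted p under 0.05 over 15271 genes. A second fit added the mean log2 CPM (prior count 2) of 15 of 16 listed shared sarcomere genes. Intervals are 95%. The script was tested on simulated data. No 2 libraries of the same group were duplicates. Such pairs never differed by less than a chi-square of 50.13 per degree of freedom, over genes with at least 20 counts. Pairs from different groups were not examined. Depth was 19.25 to 40.65 M counts.

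Alternatives were DESeq2 size factors, DESeq2 1.42.0 and limma voom (limma 3.58.1) tests, mitochondrially encoded genes removed, no filter on low counts, only the 2 groups compared, and each library left out. The members and the other lists were chosen with earlier results of these data known. The text names all members, genes among the 2 most abundant of each other list, and the 6 genes most like the members' mean. Genes outside this rule are named as cell type markers, as counterpart isoforms or as the only call, after their values were seen.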

Additional observations from a re-analysis of the deposited data

Results flagged for a closer look

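A lone library stood far from the others of its group in 7 of 65 combinations of group and measure examined, where chance nominally flags about 1 in 20 groups for measures that are independent. These were not: 5 of the 7 are 1 library seen through genes that varied together, so the number of flags says little. Gaps were taken on CPM or percent without logs, a scale on which a single low library stands out less. No flag fell on A320 or A242, although both were far below the rest of their group for most members. In MetOP saline A265 was the high library for 5 genes. It had 5458 CPM of the Myh4 row, against 3368 to 3756 in the other 4, and 1234 CPM of Actn3, against 532 to 644. Tnnt3 was at 5919 CPM there, against 1891 to 2836, Atp2a1 at 4378, against 2298 to 2587, and Casq1 at 737, against 382 to 432. Also in MetOP saline, Myh2 made up 35.0% of the FPKM of the myosin rows in A224, against 1.56 to 11.2% in the others. In PYY, Myh7 made up 90.1% in A220, against 1.77 to 10.9% in the other 3.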

How the results depend on the processing

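No member was called under any alternative tried. With DESeq2 the number of genes called was 2 for the combination, 82 for semaglutide and 3 for PYY, each against MetOP saline, 486 for semaglutide against PYY and 47 for MetOP saline against healthy controls. Leaving out 1 library gave 0 to 1 genes for PYY and 1 to 1021 for semaglutide against PYY. Counts of calls were the same or within 1.5 times with DESeq2 size factors, without mitochondrially encoded genes, without the filter and with only the compared groups, and all member fold changes kept their sign there. The limma voom fit turned the sign of 14 member fold changes. For the combination it gave the Myh4 row -0.458, Tnni2 -0.603, Tnnt3 -0.507, Tnnc2 -0.562, Actn3 -0.314, Atp2a1 -0.443, Casq1 -0.528, Myl11 -0.677 and Myh2 0.225. For semaglutide it gave the Myh4 row -0.526, Tnni2 -0.169, Tnnt3 -0.036, Tnnc2 -0.001 and Actn3 -0.389. Of 423 member fold changes with 1 library left out, 23 turned sign. For the combination the ranges were the Myh4 row -0.194 to 0.738, Tnni2 -0.389 to 0.46, Tnnt3 -0.327 to 0.582, Tnnc2 -0.33 to 0.438, Actn3 -0.123 to 0.83, Atp2a1 -0.207 to 0.636, Casq1 -0.379 to 0.501, Myl11 -0.452 to 0.409 and Myh2 -0.549 to 0.452. For PYY, Myh2 ran over -0.75 to 0.517. For MetOP saline against healthy controls they were Tnni2 -0.527 to 0.155, Tnnt3 -0.619 to 0.075, Tnnc2 -0.488 to 0.077, Myl11 -0.612 to 0.091 and Myh2 -0.868 to 0.24. As a share of all counts in place of the non-mitochondrial ones, the members' median was 1.65% with the combination, 1.23% in MetOP saline and 2.06% in healthy controls, since the denominator is larger. With counts in place of FPKM, the combination's median was 26.5% for Myh7 and 66.2% for the Myh4 row. Counts are not divided by gene length, and the counted length of the Myh4 row is 2 times that of Myh2. The cause of the other shifts was not tested. No paired analysis was possible because the groups share no replicate numbers. The spread between libraries, with 4 or 5 in a group and pooled over all 5 groups, sets the width of the intervals. Fold changes of the size seen here could thus not be told from 0. The SD of the members' mean log2 CPM was 2.19 with the combination, 1.90 with semaglutide and 1.64 with PYY, against 0.49 in MetOP saline and 0.52 in healthy controls. With only the 2 compared groups fitted, the members' lowest edgeR adjusted p went from 0.664 to 0.358 for semaglutide against MetOP saline. For MetOP saline against healthy controls it went from 0.954 to 0.77.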

Other observations

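The myosin heavy chain of embryonic and regenerating muscle, Myh3, was present at low levels. It had 14.4, 14.8, 7.32, 29.7 and 1.82 CPM with the combination, 18.4, 30.9, 4.87, 86.8 and 19.1 CPM with semaglutide and 11.8, 0, 13.2 and 24.8 CPM with PYY. It had 30.5, 47.2, 8.15, 24.5 and 4.48 CPM in MetOP saline and 2.64, 40.2, 66.7 and 55.6 CPM in healthy controls. The highest level was in A242 (semaglutide) and the library with no count was A216 (PYY). Of 12 listed genes of muscle development and repair, 10 passed the low-count filter. Of these 10, 4 were above 0 with the combination, 9 with semaglutide and 1 with PYY, each against MetOP saline, and none was called.

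The median of 5 fat markers was below 0 in the combination (0 of 5 above 0, median -1.26), in semaglutide (0 of 5, -0.74) and in PYY (1 of 5, -0.86) against MetOP saline. It was 0.08 in semaglutide against PYY (3 of 5) and 1.02 in MetOP saline against healthy controls (5 of 5), and none was called. Of the 5 markers, Lep was at 0 in 13 of the 23 libraries and Plin1 in 11. The summed level was 31.1 to 104 CPM with the combination, 43.7 to 127 with semaglutide, 26.7 to 121 with PYY, 63.2 to 207 in MetOP saline and 64.3 to 97.3 in healthy controls. Its median was 69.5 CPM in MetOP saline and 76.9 CPM in healthy controls. The mean level by library was 1.80, 1.05, -0.51, -0.37 and 3.08 log2 CPM in MetOP saline and 0.57, 0.53, -0.82 and 0.235 in healthy controls. Of 6 tendon markers, 1 was above 0 in semaglutide against PYY, with a median of -2.08 and none called.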
